A study of Rattus norvegicus with 6 samples.

Results

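The transcripts examined here are those of 7 genes for the fibrillar collagens and secreted bone matrix: Col1a1, Col1a2, Col3a1, Fn1, Sparc, Postn and Lox. They were taken by rat Ensembl identifier, as the main matrix products of bone marrow stromal cells, from a table of 19458 genes. All 7 identifiers were present, and all 7 passed the filter on low values that left 11865 genes for testing. The cells were primary wild-type rat bone marrow mesenchymal stem cells (stromal cells that can form bone, cartilage and fat). They were kept for 6 hours either on nanotubes of 100 nm, made of titanium dioxide per the series title, or on a smooth surface, with 3 RNA sequencing libraries per surface. Nothing in the labels ties the 3 libraries to separate animals or dishes, so p-values here weigh a difference against library-to-library spread that could be technical. The deposited table pairs no identifier with a symbol. The 7 names come from the gene selection itself, other genes stay unnamed, and markers of other cell types were not analysed here.

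Stromal cells build their matrix in a known order. Secreted fibronectin is bound by integrins at the cell surface and pulled into fibrils, on which collagen is then laid down. The chains encoded by Col1a1 and Col1a2 wind together into type I collagen, the main protein of bone, while Col3a1 encodes the chain of type III collagen, which mixes with type I in thinner fibrils. Sparc (osteonectin) binds collagen and mineral. Postn (periostin) is a matricellular protein of the periosteum and other loaded connective tissue, and lysyl oxidase, the product of Lox, is the enzyme that cross-links collagen and elastin outside the cell.

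Promoter windows from RefSeq (build GRCr8, 250 bases before to 50 after the annotated start) were held for 3 of the 7 genes, Col1a2, Sparc and Postn. Stretches of these 3 windows are shown. Col1a2 and Sparc, described below, varied together over the libraries while Postn did not follow them as closely. Whether promoter letters bear on this was not tested. Each is 5′ to 3′ on the strand of the gene, and capitals mark matches to the TATA box (TATAAA) or the CCAAT box (CCAAT, which reads ATTGG on the other strand). The Col1a2 stretch is chr4:33518307-33518406 (+ strand), the Postn stretch is chr2:140678005-140678034 (+ strand) and the Sparc stretch is chr10:40038817-40038876 (- strand).
Col1a2: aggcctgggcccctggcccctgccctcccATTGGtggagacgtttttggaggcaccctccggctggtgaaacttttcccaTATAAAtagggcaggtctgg
Postn: agcccagagctcTATAAAttcagctctcta
Sparc: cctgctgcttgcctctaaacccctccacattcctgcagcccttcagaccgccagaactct
Col1a2 and Postn each held 1 TATAAA on the strand of the gene, beginning at position -170 for Col1a2 and -44 for Postn from the annotated start. On either strand, 14.2% of the 33469 promoters of the table held TATAAA. Whether either match acts as a TATA box was not tested. Col1a2 also held 1 CCAAT, a motif in 37.5% of promoters. The GC box (GGGCGG) was in none of the 3 windows and in 33.1% of all promoters, and the Sparc window held none of these letters.

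The libraries had totals of 16299799 to 17624390 counted reads. Distances between libraries did not follow the surfaces throughout. Nanotube library 3 was closest to smooth library 2. Over the tested genes the median absolute difference of this pair was 0.10 on the log2(FPKM + 1) scale, the smallest of 15 library pairs. Nanotube library 3 stood at 0.134 and 0.241 from smooth libraries 3 and 1, and at 0.307 and 0.242 from nanotube libraries 1 and 2. It was thus nearer to every smooth library than to either other nanotube library, though only barely for smooth library 1. In 67.8% of tested genes the value of smooth library 3 fell between those of smooth libraries 1 and 2. The most distant pairs were nanotube library 1 with smooth library 2, at 0.33, and with nanotube library 3, at 0.31. Next came nanotube library 2 with smooth library 2, at 0.262, and nanotube library 1 with smooth library 3, at 0.260. For each gene the log2 fold change is therefore also given without nanotube library 1 and without nanotube library 3. Nanotube library 3 and smooth library 3 carry no number in their titles. Both were matched to a surface by the letters of the table header, and its number 3 serves as a name.

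The 7 genes made up a large and varying part of the RNA. Together they took 9.87%, 6.26% and 4.21% of all counted reads in nanotube libraries 1, 2 and 3, against 7.41%, 4.05% and 5.56% in smooth libraries 1, 2 and 3. The share was highest in nanotube library 1 and lowest in smooth library 2, and the surfaces overlapped. The share averaged 6.78% ± 2.86 on nanotubes against 5.67% ± 1.68 on the smooth surface (SD, n = 3 each), a difference smaller than the spread within either surface. In bulk RNA of this kind, fewer cells of a type and less transcript per cell cannot be told apart. In every library 4 of the 10 genes with the most reads were of this group, namely Col1a1, Fn1, Sparc and Col3a1. These 4 held 9.26% of the reads of nanotube library 1, where the 10 genes together held 13.61%. In smooth library 2 the same 4 held 3.63%, and the 10 genes 7.97%. Counting error was small beside this: the 95% Wilson interval of the share in nanotube library 1 ran from 9.86% to 9.88%, and it covers counting error only.

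**Figure D1:**
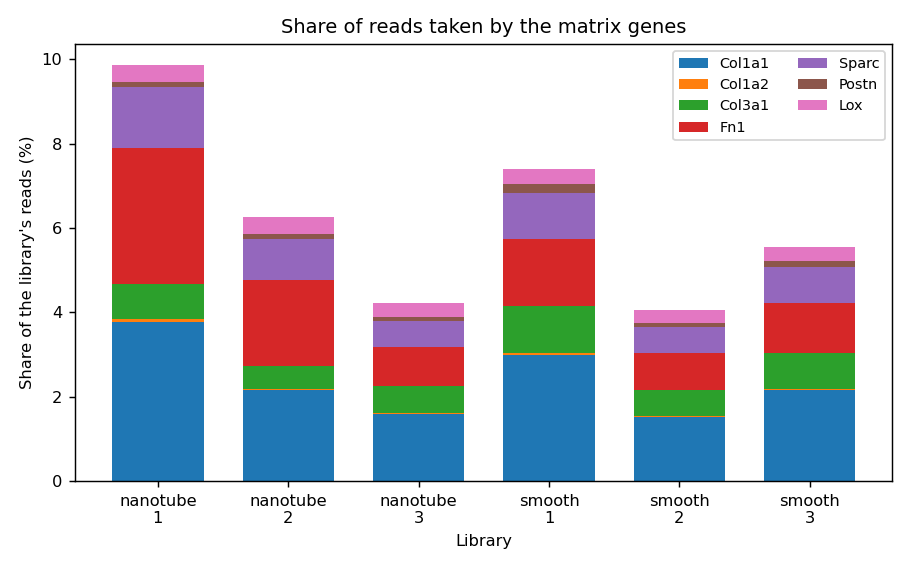
Stacked bars of the share of each library's counted reads (percent) taken by the 7 matrix genes, with nanotube libraries left and smooth libraries right. The summed share runs from 9.87% in nanotube library 1 to 4.05% in smooth library 2, and Col1a1 and Fn1 make up the largest pieces in each bar.

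On the FPKM scale, which divides reads by gene-model length and library total, the 7 levels differed widely. Averaged over the 6 libraries, the order was Sparc at 4520 FPKM, Col1a1 at 4064, Fn1 at 1951, Col3a1 at 1598, Lox at 736, Postn at 411 and Col1a2 at 88.2. Sparc and Col1a1 exchanged their rank in no library, but their means were closer than the spread of either. Fn1 and Col3a1 did exchange ranks: Fn1 was the higher in nanotube libraries 1 and 2, and Col3a1 in all 3 smooth libraries and in nanotube library 3. Sparc ranked 1 to 9 among all genes and Col1a1 ranked 2 to 13, while Col1a2 ranked 440 to 1651.

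**Figure D2:**
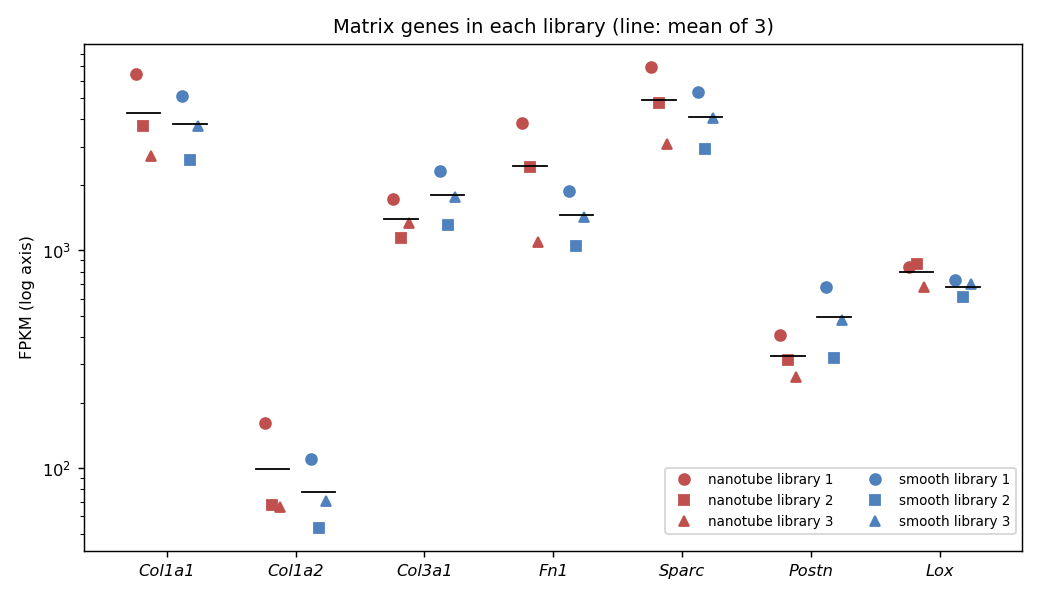
FPKM (log axis) of the 7 matrix genes in each library, nanotube libraries in red left of smooth libraries in blue, with marker shape giving the library number and a line at the mean of 3. The values of the surfaces overlap in all 7 genes, and Col1a2 lies far below the other collagen chains.

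No difference between the surfaces passed the test in any of the 7 genes. Values on the log2(FPKM + 1) scale were fitted with limma, letting the variance follow the mean, and p-values were Benjamini-Hochberg adjusted over all 11865 genes tested. It called 0 of 7 matrix genes and 0 of all tested genes (0.0%) at an adjusted p of 0.05. At an unadjusted p under 0.05 there were 0 of 7 matrix genes, where 724 of all tested genes (6.1%) passed. The surfaces overlapped in all 7. Of all tested genes, 4.72% had every nanotube value above every smooth value and 7.49% had every one below. The nanotube mean was higher in 5 matrix genes and lower in 2, where it was higher in 40.5% of tested genes and lower in 59.5%. Without nanotube library 1, Col1a1, Col1a2 and Sparc were lower on nanotubes as well. As log2 fold change of nanotubes over smooth, the median was 0.22 for the 7 and -0.044 over all tested genes.

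The 95% intervals were wide, so the data leave room for sizeable differences in either direction. Only for Col3a1 and Lox did the interval lie within a 2-fold change either way, and for Col3a1 barely. Half-widths ran from 0.35 for Lox to 1.11 for Fn1 on the log2 scale, with a median of 0.38 over all tested genes. The matrix genes varied more between libraries of 1 surface than most genes did. On the log2 scale their median SD was 0.59 on nanotubes and 0.44 on smooth, where the median SD of all tested genes was 0.21 on nanotubes and 0.15 on smooth. Lox was the exception on both surfaces, with SDs of 0.19 on nanotubes and 0.13 on smooth.

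**Figure D3:**
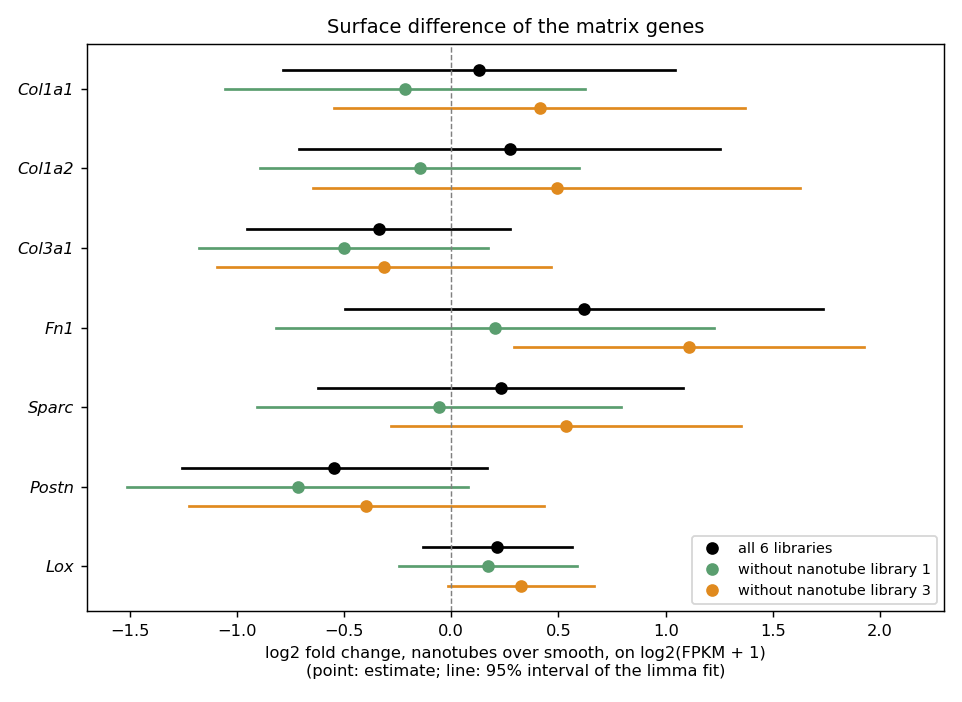
Log2 fold change of nanotubes over smooth for each matrix gene on the log2(FPKM + 1) scale, with 95% intervals of the limma fit, from all 6 libraries (black), without nanotube library 1 (green) and without nanotube library 3 (orange). All intervals from 6 libraries cross 0. For Fn1 the estimate is 0.20 without nanotube library 1, with an interval across 0, and 1.11 without nanotube library 3, with an interval above 0 and a limma adjusted p of 0.179.

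Fibronectin had the largest log2 fold change of the 7. Fn1 (ENSRNOG00000014288) had 3842, 2411 and 1097 FPKM in nanotube libraries 1, 2 and 3, against 1879, 1049 and 1428 FPKM in smooth libraries 1, 2 and 3. Nanotube libraries 1 and 2 exceeded every smooth library, and nanotube library 3 was below all smooth libraries but the second. It averaged 2450 ± 1373 FPKM on nanotubes against 1452 ± 416 FPKM on smooth (SD, n = 3 each). The log2 fold change was 0.62 ± 0.47 (SE, limma adjusted p = 0.819). Leaving out nanotube library 3 gave 1.11 ± 0.33 (SE, limma unadjusted p = 0.0167, adjusted p = 0.179). In that fit 2200 of 11865 tested genes had an unadjusted p under 0.05. Leaving out both libraries numbered 3 gave 1.12 (limma adjusted p = 0.562). Leaving out nanotube library 1 gave 0.20 ± 0.41 (SE, limma unadjusted p = 0.637), and leaving out smooth library 2 gave 0.40. Without nanotube library 3, Fn1 and Lox were the 2 of 7 genes with every nanotube value above every smooth value, as were 10.8% of all tested genes. Without both libraries numbered 3 the same 2 genes were so placed, along with 12.4% of all tested genes.

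The 2 chains of type I collagen ordered the 6 libraries in the same way. Col1a1 (ENSRNOG00000003897) had 6477, 3711 and 2718 FPKM in nanotube libraries 1, 2 and 3, against 5147, 2613 and 3716 in smooth libraries 1, 2 and 3. Its highest value was on nanotubes, the next one on smooth, and the lowest on smooth. The log2 fold change was 0.13 ± 0.38 (SE, limma adjusted p = 0.956). It was -0.21 without nanotube library 1, -0.12 without smooth library 2, 0.37 without smooth library 1 and 0.41 without nanotube library 3. Col1a1 took between 255239 and 664930 reads per library, more than any other gene in each of the 6.

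Col1a2 (ENSRNOG00000011292) had 162, 68.0 and 66.2 FPKM in nanotube libraries 1, 2 and 3, against 109.7, 53.1 and 70.5 in smooth libraries 1, 2 and 3. Nanotube library 1 stood highest, and the other nanotube libraries lay inside the smooth range. The log2 fold change was 0.27 ± 0.41 (SE, limma adjusted p = 0.917), with -0.15 when nanotube library 1 was left out and 0.49 when nanotube library 3 was. Leaving out smooth library 1 gave 0.55 and leaving out smooth library 2 gave 0.033. Although both chains enter the same protein, Col1a1 was listed 40.0 to 54.6 times higher than Col1a2 per length. That ratio averaged 45.2 ± 8.1 on nanotubes and 49.6 ± 2.9 on the smooth surface (SD, n = 3 each) and overlapped between the surfaces. Col1a2 rested on 3987 to 12767 reads per library, with a counting error of at most 1.58%. The gene model has 4475 bases for Col1a2 and 5825 for Col1a1, as worked out from the FPKM values. Whether reads of Col1a2 were lost in alignment or counting was not tested.

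Type III collagen had a different order of libraries. Col3a1 (ENSRNOG00000003357) had 1730, 1140 and 1334 FPKM in nanotube libraries 1, 2 and 3, against 2321, 1308 and 1755 in smooth libraries 1, 2 and 3. Smooth library 1 was the highest and nanotube library 2 the lowest. It averaged 1401 ± 301 FPKM on nanotubes against 1795 ± 508 FPKM on smooth (SD, n = 3 each). Its log2 fold change was -0.34 ± 0.26 (SE, limma adjusted p = 0.819). It was -0.50 without nanotube library 1, -0.20 without nanotube library 2 and -0.31 without nanotube library 3. Leaving out smooth library 1 gave -0.13 and leaving out smooth library 2 gave -0.55 (limma unadjusted p = 0.0686).

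Sparc (ENSRNOG00000012840) was high and low in nearly the same libraries as Col1a1. It had 6960, 4780 and 3069 FPKM in nanotube libraries 1, 2 and 3, against 5345, 2924 and 4042 in smooth libraries 1, 2 and 3. Nanotube library 1 was highest here too and smooth library 2 lowest. The log2 fold change was 0.23 ± 0.36 (SE, limma adjusted p = 0.917), with -0.056 when nanotube library 1 was left out and 0.53 when nanotube library 3 was. It was 0.008 without smooth library 2 and 0.44 without smooth library 1.

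Periostin was the gene with the lowest nanotube mean relative to smooth. Postn (ENSRNOG00000012660) had 410, 314 and 262 FPKM in nanotube libraries 1, 2 and 3, against 679, 322 and 482 in smooth libraries 1, 2 and 3. Nanotube libraries 2 and 3 were below every smooth library, but nanotube library 1 was above smooth library 2. It averaged 329 ± 75 FPKM on nanotubes against 494 ± 179 FPKM on smooth (SD, n = 3 each). The log2 fold change was -0.55 ± 0.30 (SE, limma unadjusted p = 0.111, adjusted p = 0.76). Leaving out smooth library 2 gave -0.82 (limma unadjusted p = 0.0182, adjusted p = 0.957), in a fit where 532 of 11865 tested genes had an unadjusted p under 0.05. Leaving out smooth library 1 gave -0.28. The value was -0.72 without nanotube library 1 and -0.40 without nanotube library 3.

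Lox (ENSRNOG00000014426) varied least of the 7. It had 837, 862 and 677 FPKM in nanotube libraries 1, 2 and 3, against 730, 613 and 697 in smooth libraries 1, 2 and 3. Its highest library exceeded its lowest by 1.41 times, where the other 6 genes spanned 2.04 to 3.66 times. Only nanotube library 3 kept the surfaces from separating. Its log2 fold change was 0.22 ± 0.15 (SE, limma adjusted p = 0.795), and 0.32 when nanotube library 3 was left out (limma adjusted p = 0.287). It was 0.17 without nanotube library 1 and 0.14 without smooth library 2.

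Some features of the order over the libraries were common to most of the 7 genes, but the full order was not. Col1a1 and Col1a2 ordered all 15 library pairs alike. Fn1 ordered only 9 of 15 as Col3a1 did and 9 as Postn did, and Lox only 8 of 15 as either of these did. Smooth library 1 exceeded both other smooth libraries in all 7 genes, as it did in 29.1% of tested genes. Nanotube library 3 was the lowest nanotube library in 6 of the 7, the exception being Col3a1, and in 21.6% of tested genes. The value of smooth library 3 fell between those of the other smooth libraries in all 7 genes. Smooth library 2 was the lowest of all 6 libraries in 5 of the 7, as in 11.4% of tested genes. These counts describe genes that share each library and its total, and they have no test.

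Nanotube library 3 and smooth library 2 were alike in these genes as well. Their median absolute log2 difference over the 7 was 0.07, the smallest of the 15 library pairs, and that between nanotube libraries 1 and 3 was 1.18. Of nanotube library 3 over smooth library 2, the ratio was 1.04 for Col1a1 (exact 95% counting interval 1.03 to 1.05), 1.02 for Col3a1 (1.01 to 1.03), and 1.05 for both Fn1 (1.04 to 1.05) and Sparc (1.04 to 1.06). It was farther from 1 for Lox at 1.11 (1.09 to 1.12), for Col1a2 at 1.25 (1.19 to 1.30) and for Postn at 0.815 (0.797 to 0.833). None of these 7 counting intervals reached 1.

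Profiles were compared as the root mean square difference of log2(FPKM + 1) after each gene's own mean over the 6 libraries was taken off. The closest pair was Col1a1 and Sparc, at 0.10 log2 units, which put Sparc at place 5 among the 11864 other tested genes in likeness to Col1a1. Col1a2 stood at 0.17 from Col1a1 and ordered all 15 library pairs the same way. For Fn1 the nearest member was Sparc, at 0.27. Col3a1 and Postn were each other's nearest member, at 0.19, and Postn stood at place 96 in likeness to Col3a1. Lox was nearest to Sparc, at 0.31, with Sparc at place 6741 in likeness to it. This measure counts the size of changes as well as their order, and Lox varied little. By order alone, Lox placed 13 of 15 library pairs as Sparc did and 14 of 15 as Fn1 did. Fn1 and Postn were the most unlike by the root mean square difference, at 0.68. The median over the 21 pairs was 0.38. Among genes outside the group, ENSRNOG00000018859 and ENSRNOG00000001252 were nearest to the mean profile of the 7, at 0.0436 and 0.0443 log2 units. The first of them had 7.45, 5.00 and 3.28 FPKM in nanotube libraries 1, 2 and 3, against 6.82, 3.39 and 4.87 in smooth libraries 1, 2 and 3. No name is given to either in the sources used here.

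**Figure D4:**
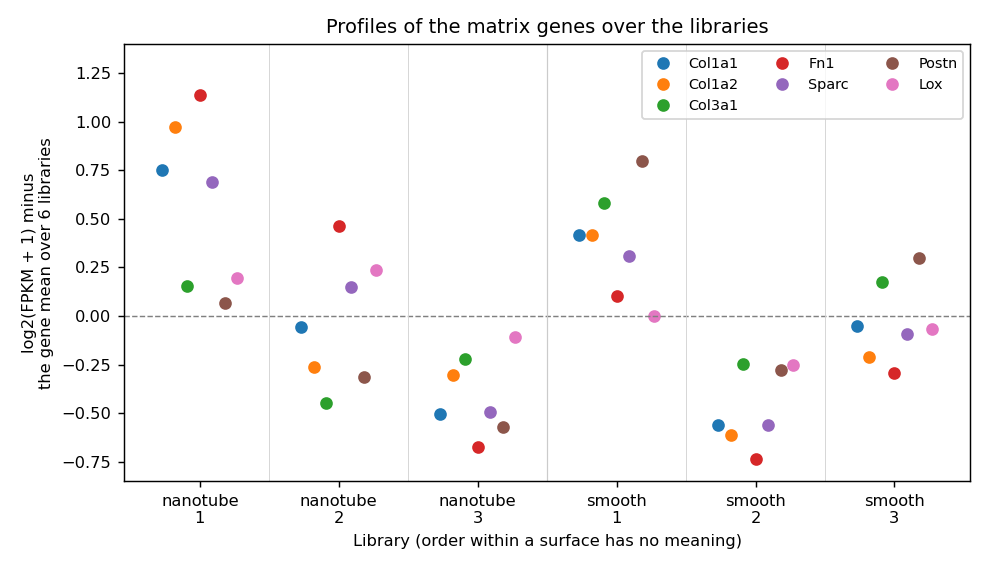
Deviation of log2(FPKM + 1) from each gene's mean over 6 libraries, for the 7 matrix genes, 1 point per gene and library, with nanotube libraries left and smooth libraries right. Col1a1 and Sparc stay close together, Fn1 is farthest up in nanotube libraries 1 and 2, and Col3a1 and Postn peak in smooth library 1.

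Among the smooth libraries some proportions between the genes were steadier than the levels. These ratios were looked at after the levels were seen, are of FPKM within a library, and have no test. Fn1 stood at 0.810, 0.802 and 0.814 times Col3a1 in smooth libraries 1, 2 and 3, while the level of Fn1 spanned 1.79 times and that of Col3a1 1.78 times over those libraries. On nanotubes that ratio was 2.22, 2.11 and 0.823 in libraries 1, 2 and 3. Nanotube libraries 1 and 2 thus held more fibronectin transcript per type III collagen transcript than any smooth library, and nanotube library 3 lay just above the smooth range. Of the 21 ratios among the 7 genes, 9 did not overlap between the surfaces. Those of Col1a1, Col1a2, Fn1, Sparc and Lox to Postn were among them, and these share 1 gene. The share of such ratios among all pairs of tested genes was not worked out, nor the share for ratios to Col3a1. The count is therefore not read as a trait of this group. Fn1 relative to Sparc was 0.552, 0.504 and 0.358 in nanotube libraries 1, 2 and 3, against 0.352, 0.359 and 0.353 in smooth libraries 1, 2 and 3, so nanotube library 3 fell inside the smooth range.

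Relative to Col1a1, Fn1 was 0.593, 0.650 and 0.404 in nanotube libraries 1, 2 and 3, against 0.365, 0.401 and 0.384 in smooth libraries 1, 2 and 3. The surfaces did not overlap, but nanotube library 3 and smooth library 2 were nearly equal. The mean log2 difference of nanotubes from smooth was 0.49, with 0.42 without nanotube library 1, 0.35 without nanotube library 2 and 0.70 without nanotube library 3. Such a ratio to Col1a1, with every nanotube value above every smooth value, occurred in 0.354% of the other tested genes. That share depends on the denominator, because Col1a1 itself spanned 2.48 times over the libraries and overlapped between the surfaces. It therefore does not measure how rare the separation of Fn1 is. Col3a1 relative to Col1a1 was 0.267, 0.307 and 0.491 in nanotube libraries 1, 2 and 3, against 0.451, 0.500 and 0.472 in smooth libraries 1, 2 and 3, and overlapped.

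Postn kept its order even in nanotube library 3. Relative to Col1a1 it was 0.0632, 0.0846 and 0.0966 in nanotube libraries 1, 2 and 3, against 0.132, 0.123 and 0.130 in smooth libraries 1, 2 and 3. The ratio averaged 0.0815 ± 0.0169 on nanotubes against 0.128 ± 0.004 on the smooth surface (SD, n = 3 each), and all nanotube libraries lay below all smooth libraries. A ratio to Col1a1 lower in this way was found in 0.759% of the other tested genes, a share that again depends on Col1a1 as denominator. The mean log2 difference of nanotubes from smooth was -0.68, and between -0.81 and -0.50 with each library left out in turn. Relative to Postn, Col1a1, Col1a2, Fn1, Sparc and Lox were all higher in every nanotube library than in every smooth one, and Col3a1 was not. Such a ratio to Postn occurred in 9.34% of the other tested genes. These ratios share genes and are not independent.

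**Figure D5:**
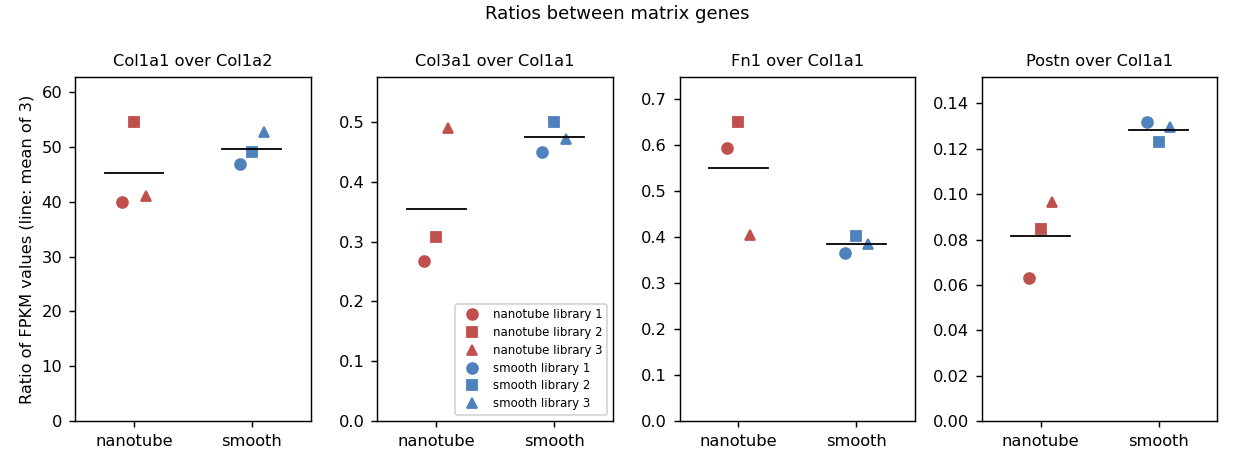
Ratios of FPKM values within each library for 4 pairs of matrix genes (each axis starts at 0), nanotube libraries left and smooth libraries right, with a line at the mean of 3. The Col1a1 to Col1a2 and Col3a1 to Col1a1 ratios overlap between surfaces, Fn1 to Col1a1 is separated by a margin between 0.404 and 0.401, and Postn to Col1a1 is lower in all 3 nanotube libraries.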

How the data were processed

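The authors deposited 1 table of FPKM values, with 1 column per library. Per the submitters' processing notes, tools used included HTSeq, HISAT2 2.1.0 and Bowtie 1.0.1 (roles unstated). The notes also name mouse builds, although all identifiers are rat. Build, annotation release and strand setting for rat were not given in the labels or notes, so overlapping or antisense genes and near-identical copies cannot be separated. Whole reads were worked out from the deposited FPKM values: 100% of values came out whole at a tolerance of 1e-12 (relative), summing to 99.74% to 99.77% of the library totals. They served for shares, counting error and an added fit.

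The surfaces were compared with limma 3.58.1 in R 4.3.3 on log2(FPKM + 1), over genes averaging 1 FPKM or more across all libraries, with no rescaling. Fold changes on this scale understate those of low genes. The fit was also run on simulated reads, with the same small spread between libraries set for every gene. Most matrix genes varied more than that, so the run does not show how the fit performs for them. The members and lists were chosen with earlier results of these data known. All 7 matrix genes are named, with the nearest member of each by profile and the 2 other identifiers nearest to their mean profile. The lists of other matrix genes and of cell type markers, set by symbol, were not tested, because no table used here pairs the identifiers with symbols. edgeR and DESeq2 were planned for recovered reads but not run on FPKM values. voom in limma took their place.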

Additional observations from a re-analysis of the deposited data

How the results depend on the processing

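Over 18 alternatives to the fit, 17 kept 0 genes called between the surfaces. Leaving out 1 library gave 0 to 1 genes called, the 1 being a gene outside the matrix group, without nanotube replicate 3. voom on the recovered reads, added after the data were seen, also called 0 genes, with 724 at an unadjusted p under 0.05. Of 126 recomputed surface differences of the 7 matrix genes, 0 passed the threshold (lowest adjusted p 0.179) and 4 changed direction, all on leaving out 1 library. With 1 library left out, Col1a1 ranged from -0.21 (without nanotube replicate 1) to 0.41, and was -0.12 without smooth replicate 2. Col1a2 ranged from -0.15 to 0.55 and Sparc from -0.056 to 0.53, the lowest values again without nanotube replicate 1. The cause was not tested. No direction changed with another pseudocount, filter or scaling. With median-of-ratios scaling the median over all tested genes was 0.0066 on the log2 scale, against -0.044 without it. The replicate block on the 4 libraries numbered in the titles gave 0 genes called and 1356 of 11865 at an unadjusted p under 0.05. Among these were Fn1 at 1.12 (limma unadjusted p = 0.00502, adjusted p = 0.416) and Col1a2 at 0.45 (limma unadjusted p = 0.0286, adjusted p = 0.418). The block on all 6 gave 0 called and 801 at an unadjusted p under 0.05. Among them were Postn at -0.55 (limma unadjusted p = 0.0393, adjusted p = 0.703) and Col3a1 at -0.34 (limma unadjusted p = 0.0479, adjusted p = 0.703). In each block fit the remaining matrix genes were above 0.05. The titles do not say that a number pairs libraries, so libraries were not treated as pairs. Deviations of same-numbered libraries from their surface means correlated at 0.32, -0.21 and 0.06. These values cannot settle pairing, because deviations from a shared mean constrain each other. The log2 difference in summed share was 0.21 with all libraries and -0.10 to 0.51 with 1 left out.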
